A study of Mus musculus with 114 samples.

Results

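The proteasome subunit genes were taken from a RiboTag study of the mouse prefrontal cortex as every row of the count table whose symbol is Psma, Psmb, Psmc or Psmd followed by a number. The rule found 35 of the 13101 genes in the table, 15 of them subunits of the 20S core (Psma and Psmb) and 20 genes of the 19S cap (Psmc and Psmd), and all 35 passed the filter on low counts. RiboTag puts a haemagglutinin tag on a ribosomal protein in cells that express Cre recombinase, so that an antibody against the tag pulls down ribosomes of those cells with their mRNA. The mice are labelled only as Ribo-tag mice and the tissue as brain; the sources used here give neither the Cre line nor the age nor the number of mice per library. Of 114 libraries 113 were used: 55 with the title prefix PV (28 female, 27 male) and 58 with the prefix C (29 female, 29 male), collected at 6 zeitgeber times, ZT2, ZT6, ZT10, ZT14, ZT18 and ZT22, with 8 to 10 libraries per prefix and time. ZT0 is lights on and ZT12 lights off by the usual convention. One column whose sex letter disagreed with the only title it could match was left out.

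Title and cell type label name opposite cells: the C-titled libraries carry the label for parvalbumin (PV) interneurons and the PV-titled libraries the label for pyramidal neurons. Marker genes side with the titles, since Pvalb, a calcium-binding protein of fast-spiking interneurons, was higher in the PV-titled libraries by 5.25 ± 0.17 on the log2 scale (± SE) and Slc17a7, the vesicular glutamate transporter of pyramidal cells, was lower by 1.31 ± 0.12. The libraries are therefore called PV-titled and C-titled throughout. All 7 PV interneuron markers and all 6 general GABAergic markers on the list were higher in the PV-titled libraries, and all 8 pyramidal markers were lower. Markers of other cells moved in the same direction as the interneuron markers: all 6 astrocyte, 5 oligodendrocyte, 6 microglial and 6 endothelial and mural genes tested were higher in the PV-titled libraries, with none at 0 everywhere. Summed astrocyte markers ran from 787.1 to 1372 CPM (the count relative to the TMM-scaled library total) in the PV-titled libraries and from 217.5 to 894.1 in the C-titled ones. The sums were 213.2 to 699.6 against 129.2 to 323.2 CPM for oligodendrocytes, 123.8 to 225.7 against 25.6 to 69.9 for microglia, and 63.4 to 197.7 against 8.43 to 54.2 for vascular cells. Pyramidal markers, though lower, still summed to 1304 to 3634 CPM in the PV-titled libraries, against 3667 to 7602 CPM in the C-titled ones. PV interneuron markers summed to 222.8 to 858.8 against 66.9 to 143.02 CPM. For the GABAergic markers the sums were 631.6 to 2010 against 41.9 to 268.7 CPM. The PV-titled libraries thus held much pyramidal RNA.

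Counts assigned to genes totalled 19.1 to 39.5 M (mega) in the PV-titled libraries, against 24.6 to 44.1 M in the others. Reads in the table's row without a gene made up 55.5 to 67.7% of the PV-titled libraries' totals and 51.9 to 59.4% of the C-titled libraries' totals. Judged by how well each correlated with libraries of the same prefix (the median), 8 stood apart: 3 PV-titled libraries and 5 C-titled libraries, the latter all at ZT2 or ZT6. Nothing in the labels says that the libraries came from separate mice, so the p-values measure the spread between libraries.

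The proteasome is the barrel-shaped protease that degrades proteins tagged with ubiquitin. Its 20S core is a stack of rings: alpha subunits (Psma) form the outer rings and gate the entrance, and beta subunits (Psmb) form the inner rings, in which Psmb5, Psmb6 and Psmb7 carry the chymotrypsin-like, caspase-like and trypsin-like active sites. The 19S cap binds ubiquitin chains, removes them and feeds the unfolded chain into the core through a ring of ATPases (Psmc) set in a base and lid of Psmd subunits. In neurons the proteasome takes part in the turnover of synaptic proteins, and the transcription factor Nfe2l1 (Nrf1) is known to raise many subunit genes together through antioxidant response elements when proteasome activity falls.

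Promoters are printed for 4 members on which the comparison turns: the catalytic subunits Psmb5 and Psmb6, the lid subunit Psmd8 that differed most in the cap, and Psma3, the only member that was higher in the PV-titled libraries. Each sequence is the RefSeq promoter window of 300 bases on GRCm38.p6, 250 before and 50 after the annotated start, at chr14:54617946-54618245 (minus strand) for Psmb5, chr11:70525107-70525406 (plus strand) for Psmb6, chr7:29180624-29180923 (minus strand) for Psmd8 and chr12:70974373-70974672 (plus strand) for Psma3. Capitals mark a match to the antioxidant response element core TGACNNNGC on either strand.
Psmb5: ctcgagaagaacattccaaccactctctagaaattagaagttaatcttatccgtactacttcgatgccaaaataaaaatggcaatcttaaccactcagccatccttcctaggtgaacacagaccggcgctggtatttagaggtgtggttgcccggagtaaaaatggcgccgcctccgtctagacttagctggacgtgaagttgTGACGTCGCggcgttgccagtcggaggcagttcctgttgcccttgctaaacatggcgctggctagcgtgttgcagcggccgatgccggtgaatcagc
Psmb6: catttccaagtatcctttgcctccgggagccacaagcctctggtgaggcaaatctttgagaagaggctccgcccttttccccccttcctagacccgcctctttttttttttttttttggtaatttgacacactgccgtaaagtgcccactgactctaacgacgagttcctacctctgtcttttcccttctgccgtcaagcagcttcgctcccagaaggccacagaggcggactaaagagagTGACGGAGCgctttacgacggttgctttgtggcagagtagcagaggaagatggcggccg
Psmd8: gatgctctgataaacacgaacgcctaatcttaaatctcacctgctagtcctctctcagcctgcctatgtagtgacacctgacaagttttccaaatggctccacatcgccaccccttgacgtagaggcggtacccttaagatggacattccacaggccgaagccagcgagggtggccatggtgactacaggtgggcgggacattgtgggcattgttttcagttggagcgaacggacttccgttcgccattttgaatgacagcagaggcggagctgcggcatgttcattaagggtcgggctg
Psma3: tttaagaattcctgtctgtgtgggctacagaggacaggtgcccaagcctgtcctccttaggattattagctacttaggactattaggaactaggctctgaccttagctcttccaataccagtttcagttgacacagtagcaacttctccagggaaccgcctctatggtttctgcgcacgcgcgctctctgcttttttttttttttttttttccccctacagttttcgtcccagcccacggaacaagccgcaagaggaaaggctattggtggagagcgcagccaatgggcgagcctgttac
The match began 47 bases before the annotated start in Psmb5 and 9 bases before it in Psmb6, and neither the Psmd8 nor the Psma3 window held one. RefSeq windows were at hand for 29 of the 35 members, but not for Psmb7, the remaining catalytic subunit. Of the 29, 5 held the element (Psmb5, Psmb6, Psmc6, Psmd9 and Psmd12), or 17.2%. Among the 9663 tested genes of the count table that have such a window, 1643 held it, nearly the same share. The CCAAT box, searched as CCAAT on both strands, was in 11 of 29 members (37.9%) and 42.7% of the tested genes. The E-box CACGTG, the core of the sequence bound by the clock factors CLOCK and BMAL1, was in 3 of 29 members (10.3%) and 1162 of the 9663 tested genes. Matches of different motifs can share bases in a window.

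The first comparison asks whether the subunit mRNAs on tagged ribosomes differ between the 2 kinds of library. They were lower in the PV-titled libraries in 34 of 35 genes and higher in 1, Psma3 (edgeR's quasi-likelihood test with Benjamini-Hochberg adjustment over 13053 genes, adjusted p under 0.05). Of all genes tested, 43.2% were lower and 44.3% higher in the PV-titled libraries, 87.5% together, so a call by itself sets few genes apart here. In the core 14 of 15 genes were lower, with a median log2 difference of -1.06, and in the cap 20 of 20 were lower, with a median of -0.74; the median of all genes tested was 0.01. A difference at or below the core's median was found in 5.46% of all genes tested and one at or below the cap's median in 14.4%. In pulled-down RNA, fewer cells of a type and less RNA per cell cannot be told apart. The part of pyramidal RNA in the PV-titled libraries, of the other cells' markers and of the share of reads without a gene in these differences was not tested.

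**Figure D1:**
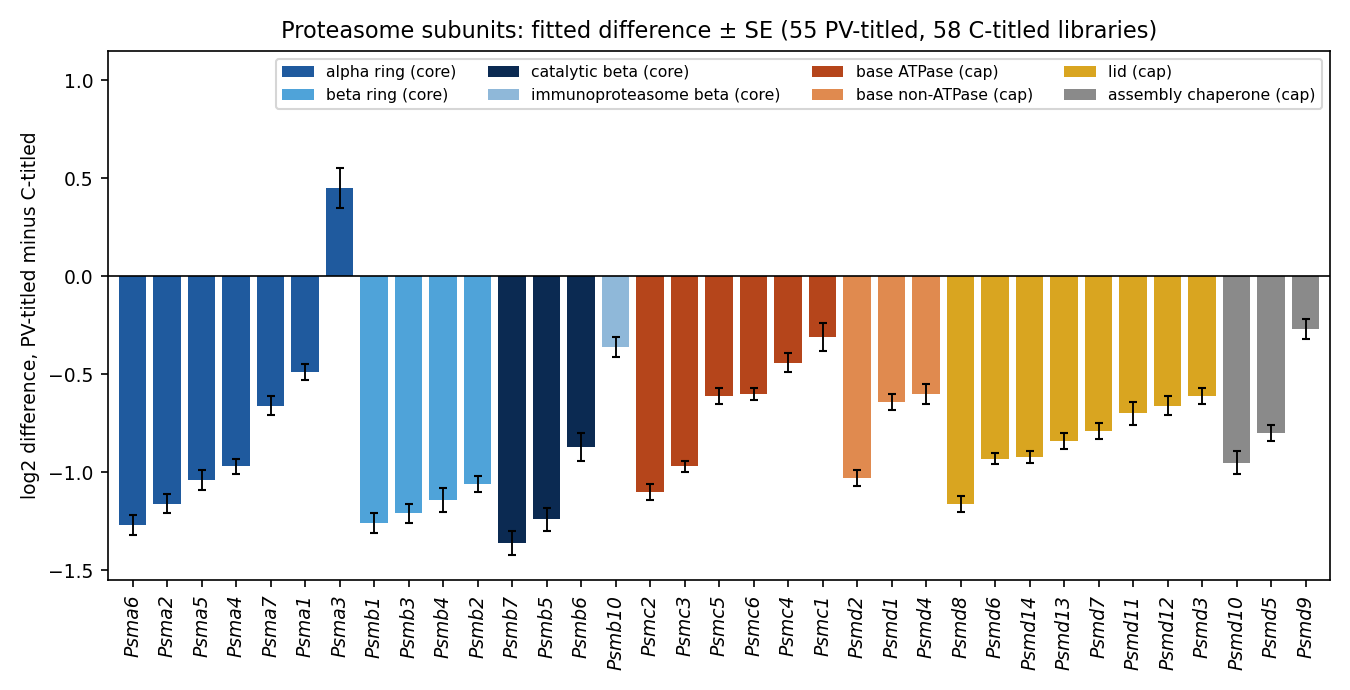
Log2 difference between PV-titled and C-titled libraries for each of the 35 members (bars, with the standard error of the fit), grouped and coloured by role; 55 PV-titled and 58 C-titled libraries. Bars of 34 members point down, from -1.36 for Psmb7 to -0.27 for Psmd9, and the bar of Psma3 points up to 0.45.

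The 3 catalytic subunits were all lower in the PV-titled libraries. Psmb7, the trypsin-like subunit (chromosome 2, 38588036 to 38644087, GRCm38), had a lowest, median and highest level of 13.2, 35.3 and 59.6 CPM in the PV-titled libraries and of 34.97, 86.7 and 162.5 CPM in the C-titled libraries. The ranges overlapped, but all 55 PV-titled libraries were under the C-titled median, and the fitted difference of -1.36 ± 0.06 (log2 ± SE, adjusted p = 3.94e-42) was the largest of the 35 members. Psmb5, the chymotrypsin-like subunit that proteasome inhibitor drugs bind (chromosome 14, 54614119 to 54618022), ran from 20.7 through 51.2 to 81.03 CPM in the PV-titled libraries and from 90.8 through 121.8 to 263.3 CPM in the C-titled ones. Its groups did not overlap, and the difference was -1.24 ± 0.06 (adjusted p = 1.17e-41). Psmb6, the caspase-like subunit (chromosome 11, 70525367 to 70527858), ran from 104.1 through 147.2 to 301.98 CPM against 206.97 through 269.2 to 671.4 CPM. Its groups overlapped, with 53 of 55 PV-titled libraries under the C-titled median, and its difference was the smallest of the 3 at -0.87 ± 0.07 (adjusted p = 7.21e-23).

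The 4 beta subunits without an active site, Psmb1, Psmb2, Psmb3 and Psmb4, lay close together, between -1.06 and -1.26. Psmb1 was the third lowest of the core: it ran from 76.5 through 106.97 to 180.7 CPM in the PV-titled libraries and from 200.7 through 258.6 to 452.98 CPM in the C-titled ones, with no overlap and a difference of -1.26 ± 0.05 (adjusted p = 2.49e-44). Alpha subunits were more spread. Psma6 (chromosome 12, 55384222 to 55418454) ran from 32.4 through 56.2 to 80.5 CPM against 105.96 through 136.5 to 198.4 CPM. Its groups did not overlap, and it differed by -1.27 ± 0.05 (adjusted p = 1.61e-46). Psma2, Psma5 and Psma4 followed between -1.16 and -0.97, and Psma7 and Psma1 had smaller differences of -0.66 and -0.49. In all, the groups did not overlap in 7 of the 15 core genes and 4 of the 20 cap genes, and each of these 11 was lower in the PV-titled libraries, as were 2.10% of all genes; in 2.41% the PV-titled libraries were all higher, and no member was among these.

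Psmb10, which replaces Psmb7 in the immunoproteasome, the form of the core made by immune and interferon-treated cells, was the second highest of the core. Its level ran from 28.3 through 48.2 to 83.7 CPM in the PV-titled libraries and from 49.7 through 61.6 to 122.5 CPM in the C-titled ones. The groups overlapped widely, 10 of 55 PV-titled libraries exceeded the C-titled median, and the difference was -0.36 ± 0.05 (adjusted p = 1.02e-09), against -1.36 for the subunit it replaces. The summed microglial markers, given above, were higher in the PV-titled libraries, and their part in the level of Psmb10 was not tested. Psmb8 and Psmb9, the other immunoproteasome subunits, were not among the rows that the rule found in the count table, so they have no values here.

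Psma3, an alpha subunit (chromosome 12, 70974621 to 70996347), ran from 176.3 through 293.4 to 1519 CPM in the PV-titled libraries and from 175.4 through 208.9 to 1359 CPM in the C-titled libraries. The groups covered nearly the same range, and 51 of 55 PV-titled libraries exceeded the median of the C-titled ones; the difference was 0.45 ± 0.10 (adjusted p = 4.54e-05). Each of the 5 libraries at over 2 times their prefix's median was one that stood apart, and without those libraries the highest values were 559.8 CPM (PV-titled) and 386.6 CPM (C-titled) and the difference 0.49 (adjusted p = 8.09e-13). Within the 2 ranges of library numbers it was 0.65 and 0.29, and without set 1 of the titles it was 0.27. The annotated antisense transcript 3110056K07Rik overlaps Psma3, the labelled library kit does not mark the strand, and reads from the overlap cannot be assigned to one of them. That antisense gene ran from 11.3 through 28.8 to 50.4 CPM in the PV-titled libraries and from 3.51 through 5.57 to 10.3 CPM in the C-titled libraries, with no overlap and a difference of 2.35 ± 0.08 (adjusted p = 9.32e-55). Its part in the value of Psma3 was not tested. Psma3 is not alone in this: other members also overlap annotated genes on the opposite strand. Among them are Psmb7 (Nek6), Psmb10 (Gm16156), Psmc3 (Slc39a13), Psmd9 (Hpd) and Psmd13 (Sirt3). The part of these genes in the members' values was not tested either.

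In the cap, the base ATPases, which unfold the substrate, spread from -1.10 to -0.31. Psmc2 (chromosome 5, 21785283 to 21803787) ran from 60.1 through 86.4 to 150.7 CPM in the PV-titled libraries and from 100.7 through 189.1 to 275.6 CPM in the C-titled libraries. Its ranges overlapped, with 47 of 55 PV-titled libraries under the lowest C-titled one, and the difference was -1.10 ± 0.04 (adjusted p = 1.02e-46). Psmc3 followed at -0.97, with no overlap. Psmc5, Psmc6 and Psmc4 lay at -0.61, -0.60 and -0.44. Psmc1 (chromosome 12, 100110154 to 100123405) had the smallest difference of the ATPases. It ran from 181.02 through 266.8 to 843.4 CPM against 283.7 through 365.3 to 551.03 CPM, with 11 of 55 PV-titled values over the C-titled median, and differed by -0.31 ± 0.07 (adjusted p = 1.73e-05). That value rested on 1 range of library numbers: it was -0.63 (adjusted p = 2.5e-15) in the second range and 0.04 (adjusted p = 0.741) in the first, and without set 1 it was -0.51. In 7 PV-titled libraries Psmc1 was at over 2 times the prefix's median, and 3 of these stood apart.

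The other base subunits were lower as well. Psmd2, a scaffold that docks ubiquitin shuttles, ran from 124.1 through 192.5 to 360.04 CPM in the PV-titled libraries and from 216.2 through 397.1 to 617.6 CPM in the C-titled libraries. The ranges overlapped, all 55 PV-titled libraries were under the C-titled median, and the difference was -1.03 ± 0.04 (adjusted p = 2.66e-43). Psmd1, the second large scaffold, and Psmd4, a ubiquitin receptor, lay at -0.64 and -0.60. All 8 lid genes were lower, with a median of -0.81. The largest difference of the cap was that of the lid subunit Psmd8 (chromosome 7, 29174188 to 29180701), which ran from 63.04 through 87.4 to 129.6 CPM against 130.8 through 199.8 to 249.9 CPM. Its groups just failed to meet, and the difference was -1.16 ± 0.04 (adjusted p = 1.03e-55). Psmd14, the deubiquitinase that strips ubiquitin from the substrate, lay at -0.92, and the smallest lid difference was -0.61 in Psmd3.

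The rule also takes in 3 Psmd genes whose products are chaperones of cap assembly and not parts of the finished particle. Psmd10 and Psmd5 were lower by 0.95 and 0.80 on the log2 scale. Psmd9 (chromosome 5, 123169413 to 123250131) had the smallest difference of the 34 lower members: it ran from 23.4 through 30.8 to 53.01 CPM in the PV-titled libraries and from 25.6 through 38.2 to 63.4 CPM in the C-titled libraries, with 13 of 55 PV-titled libraries above the C-titled median, and differed by -0.27 ± 0.05 (adjusted p = 2.07e-07). Without the 3 chaperones the cap's median was -0.70. Annotated genes of at least 95% identity over at least 50% of the transcript exist for Psma4, Psma5, Psmb3, Psmb5, Psmc1, Psmd2 and Psmd11, and how reads were shared with these copies is not given in the sources used here, so their levels are less certain.

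When the test asked for a difference of more than 2-fold (edgeR's glmTreat, adjusted p under 0.05), 7 core and 2 cap genes passed, all lower, against 4.54% of all genes lower and 22.5% in either direction. Within the 2 ranges of library numbers the core's median was -0.85 and -1.20 and the cap's -0.67 and -0.80. Scaling by library totals without TMM factors moved the median of all genes to 0.21. The core's median was then -0.85 and the cap's -0.54, 18 of 20 cap genes were lower, and Psmc1 (-0.11, adjusted p = 0.0876) and Psmd9 (-0.07, adjusted p = 0.202) did not pass.

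Core and cap levels were then compared library by library, as the mean log2 CPM of the 15 core genes and of the 20 cap genes. The core level was 6.29 ± 0.22 (SD, n = 55) in the PV-titled libraries, from 5.90 to 6.80, and 7.20 ± 0.21 (SD, n = 58) in the C-titled libraries, from 6.86 to 7.79. The cap level was 6.56 ± 0.16 (SD, n = 55), from 6.30 to 6.96, and 7.32 ± 0.12 (SD, n = 58), from 7.11 to 7.69. Neither level overlapped between the prefixes. Core minus cap, which shows whether the gap is wider in the core, was -0.27 ± 0.15 (SD, n = 55) in the PV-titled libraries and -0.11 ± 0.18 (SD, n = 58) in the C-titled libraries. These values overlapped in most libraries: 48 of 55 PV-titled libraries lay above the lowest C-titled one and 44 of 55 below the C-titled median. Without the libraries that stood apart core minus cap was -0.27 ± 0.15 (SD, n = 52) and -0.15 ± 0.12 (SD, n = 53). Within the first range of library numbers it was -0.29 ± 0.16 (SD, n = 26) and -0.21 ± 0.11 (SD, n = 29), and within the second -0.25 ± 0.14 (SD, n = 29) and -0.02 ± 0.19 (SD, n = 29), so PV-titled and C-titled means lay closer together in the first. No p-value is given for levels averaged over the members.

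**Figure D2:**
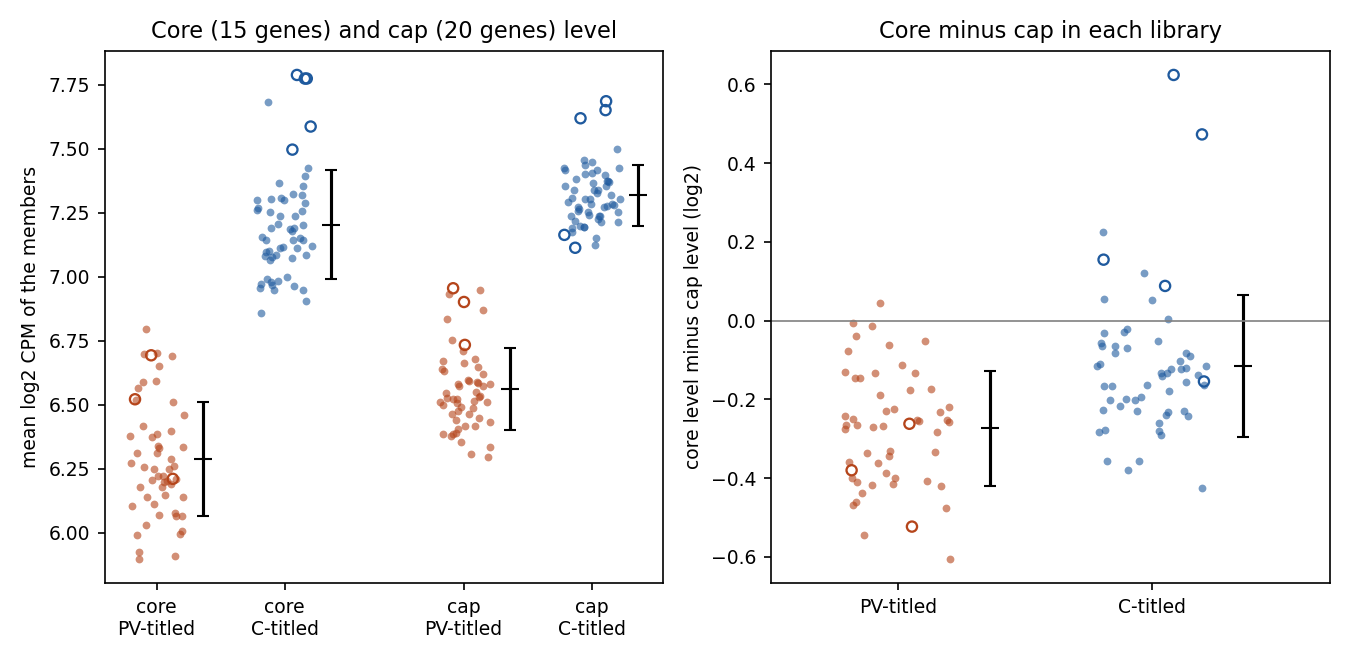
Left, mean log2 CPM of the 15 core and 20 cap genes in each library; right, core minus cap. Points are libraries, open circles the 8 libraries that stood apart, and black bars the mean ± SD; the PV-titled and C-titled clouds are separate for core and cap and overlap for their difference.

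Levels between genes can be compared only per length, so CPM was divided by the length of each gene's principal transcript in kilobases. Per kilobase, Psmb6 was the highest core gene in both kinds of library, with a median of 184.4 CPM per kilobase in the PV-titled libraries and 337.3 in the C-titled ones. The lowest core genes were Psma2 at 26.96 CPM per kilobase in the PV-titled libraries and Psmb10 at 46.98 in the C-titled libraries. The core thus spanned 6.84-fold and 7.18-fold between its lowest and highest gene. In the cap the ATPase Psmc5 was highest in both, at 197.2 and 299.9 CPM per kilobase. Psmd11 was lowest in the PV-titled libraries at 11.5, and Psmd9 in the C-titled libraries at 14.7, so the cap spanned 17.1-fold and 20.4-fold. The 3 assembly chaperones were among the 4 lowest cap genes in the C-titled libraries. A 3′ UTR that is longer or shorter in these cells than in the annotated transcript would change these values. The differences between prefixes would stay the same only where its length is the same in both, which was not tested.

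**Figure D3:**
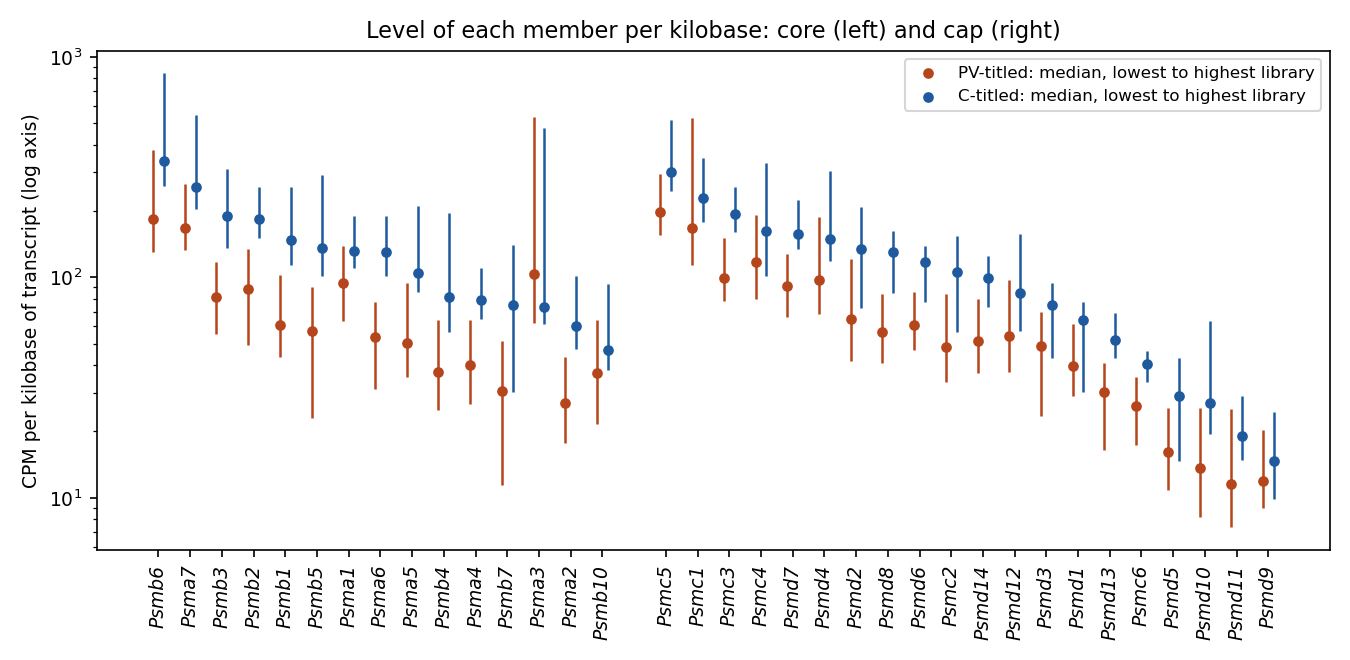
CPM per kilobase of principal transcript on a log axis for the 15 core genes (left) and 20 cap genes (right), ordered by the C-titled median; points are medians and lines run from the lowest to the highest library. The C-titled median lies above the PV-titled median for every gene but Psma3, and Psmb6 and Psmc5 head their groups.

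The wider pathway was read from 6 lists of 40 genes. Of 39 that were tested, 29 were lower in the PV-titled libraries, 9 were higher and 1, the activator subunit Psme2, did not pass (-0.10 ± 0.06, adjusted p = 0.132). Among all genes tested, 43.2% were lower and 44.3% higher, 87.5% together. Among assembly chaperones 4 of 5 were lower, led by Pomp, which matures the core, at -0.85 ± 0.06 (adjusted p = 2.4e-25). Activators and the inhibitor split: Psme1, Psme3 and Psmf1 were lower, while Psme4, the activator PA200 that caps the core in place of the 19S cap, was higher by 2.12 ± 0.06 (adjusted p = 2.5e-58). Psme4 ran from 32.7 through 70.5 to 104.6 CPM in the PV-titled libraries and from 10.4 through 15.7 to 27.4 CPM in the C-titled libraries, with no overlap. Of the proteasome-bound receptors and deubiquitinases 7 of 8 were lower, and the exception, Ecpas, which tethers core and cap, was higher by 0.93 ± 0.05 (adjusted p = 4.14e-35). Shuttles and unfoldases were lower in 7 of 9, led by the shuttles Ubqln2 at -1.20 and Ubqln1 at -1.13 and by the unfoldase Vcp at -1.12.

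Among the genes that control subunit transcription, Nfe2l1 was lower by 0.74 ± 0.05 on the log2 scale (adjusted p = 4.88e-28), from 67.7 through 188.8 to 288.2 CPM in the PV-titled libraries against 142.5 through 319.3 to 359.2 CPM. Its partner Mafg was higher by 1.05 ± 0.09 (adjusted p = 3.85e-21). Nfe2l2 (Nrf2), the related factor of the oxidative stress response, was higher by 2.71 ± 0.15 (adjusted p = 6.57e-34), at 2.10 through 6.30 to 11.8 CPM against 0.0593 through 0.795 to 2.42 CPM, levels far below those of Nfe2l1. Of the ubiquitin genes, the polyubiquitin gene Ubb was lower by 1.44 ± 0.07 (adjusted p = 3.1e-41). None of the 39 genes passed the rhythm test in the PV-titled libraries, and 8 did in the C-titled libraries, where 3.10% and 27.00% of all genes did.

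The second question is how the members run over the day. A cosine with a period of 24 h was fitted in each kind of library; its amplitude runs from the fitted mean to the fitted peak, in log2 units, and the fitted peak is given as ZT. In the PV-titled libraries no core and no cap gene passed (edgeR's quasi-likelihood test, smallest adjusted p = 0.0928 in the core and 0.231 in the cap), where 3.10% of all genes did. At an unadjusted p under 0.05 there were 4 core and 3 cap genes, 7 of 35, near the share of all genes (2246 of 13026), and DESeq2 also called none, with 4 and 2 at the unadjusted level. Without the 3 PV-titled libraries that stood apart no member passed either, where 4.06% of all genes did, and 4 core and 0 cap genes had an unadjusted p under 0.05. Fitted peaks of all 15 core genes fell in the light phase, between ZT3.54 and ZT11.5, and those of the cap were spread, with 9 of 20 in the light phase, against 49.1% of all genes. None of these fits passed, and 10 of 15 core peaks fell in the light phase in the second range of library numbers alone and in females alone. Because core genes moved together from library to library, as shown at the end, their peaks are not independent of one another.

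Psma4 had the smallest p in the PV-titled libraries. Its median level was 43.1, 50.97, 51.3, 46.95, 45.9 and 42.1 CPM from ZT2 to ZT22, and the range at each time overlapped every other time's. The fitted amplitude was 0.16 ± 0.05 with a peak at ZT8.63 (adjusted p = 0.0928). Psmb10 and Psmb4 followed in the core with amplitudes of 0.17 ± 0.06 and 0.15 ± 0.05 (adjusted p = 0.165 and 0.217). In the cap the smallest p-values belonged to Psmd14, Psmd4 and Psmd12, with amplitudes of 0.10, 0.11 and 0.11 and adjusted p-values of 0.231, 0.281 and 0.289. Averaged over the core, the level was 6.17 ± 0.15 (SD, n = 8) at ZT2, 6.45 ± 0.18 (SD, n = 9) at ZT10 and 6.18 ± 0.26 (SD, n = 10) at ZT22. The cap level was 6.49 ± 0.07, 6.64 ± 0.19 and 6.52 ± 0.21 (SD) at the same times. No PV-titled library of set 1 was from ZT2, so time and set cannot be fully told apart in these averages.

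In the C-titled libraries 5 of 15 core genes (Psma3, Psma7, Psmb3, Psmb6 and Psmb10) and 3 of 20 cap genes (Psmc5, Psmc6 and Psmd10) passed the rhythm test, against 27.00% of all genes. The core's share is near that background and the cap's is below it. Without the 5 C-titled libraries that stood apart, 1 core gene (Psmb10) and 1 cap gene (Psmc6) passed, against 21.98% of all genes. Those 5 libraries were from ZT2 and ZT6, and their core level of 7.68 ± 0.13 (SD, n = 5) was above the 7.16 ± 0.16 (SD, n = 53) of the others. The largest amplitude, 0.32 ± 0.10 in Psma3, was 0.08 without them. Among the 5, the male ZT2 library of set 4 and the female ZT6 library of set 5 had 59.4% and 58.8% of reads without a gene. No other C-titled library exceeded 55.2%. These libraries also had the lowest gene counts of the C-titled ones, 24.6 and 25.4 M. The part of depth and of reads without a gene in the rhythms was not tested.

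Psmb10 passed with and without the libraries that stood apart. It did not pass without set 3, in the first number range, in females alone or in males alone. In these settings 15.1%, 2.90%, 2.07% and 3.63% of all genes passed. The median level of Psmb10 was 61.9, 65.9, 67.3, 59.4, 57.5 and 58.2 CPM from ZT2 to ZT22, and its highest library reached 115.5, 122.5, 98.9, 69.1, 72.4 and 69.4 CPM. Values were thus higher in the light phase, with overlap at all times, and the amplitude was 0.19 ± 0.04 with a peak at ZT5.92 (adjusted p = 0.00326), or 0.11 with a peak at ZT7.66 (adjusted p = 0.0388) without the libraries that stood apart. Psmc6 ran in another phase: its medians were 96.3, 89.2, 86.1, 82.03, 90.9 and 91.7 CPM from ZT2 to ZT22. It was lowest around ZT14, with an amplitude of 0.09 ± 0.02 and a peak at ZT24.0 (adjusted p = 0.00595), and 0.08 (adjusted p = 0.00743) without those libraries. Psmc6 did not pass without TMM, without set 3, in either number range or in either sex alone.

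The other members named by their small p depended on the libraries that stood apart. Psmb6 had medians of 281.7, 283.4, 282.1, 268.4, 254.1 and 251.7 CPM, and its 3 libraries at over 2 times the median, at 671.4, 655.4 and 549.7 CPM, all stood apart. Its amplitude of 0.22 ± 0.06 (adjusted p = 0.027) became 0.08 (adjusted p = 0.36) without them. Psma7 went from 0.17 ± 0.05 (adjusted p = 0.029) to 0.09 (adjusted p = 0.121), Psmc5 from 0.13 ± 0.04 (adjusted p = 0.0321) to 0.04 (adjusted p = 0.618) and Psmd10 from 0.17 ± 0.05 (adjusted p = 0.0319) to 0.07 (adjusted p = 0.397). Called genes peaked between ZT2.82 and ZT7.56 except Psmc6. Called or not, all 15 core and 12 of 20 cap genes had fitted peaks in the light phase, against 54.6% of all genes. The core count was 14 without the libraries that stood apart and 13 without TMM. Core genes moved together in these libraries too, so their peaks are not independent of one another.

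**Figure D4:**
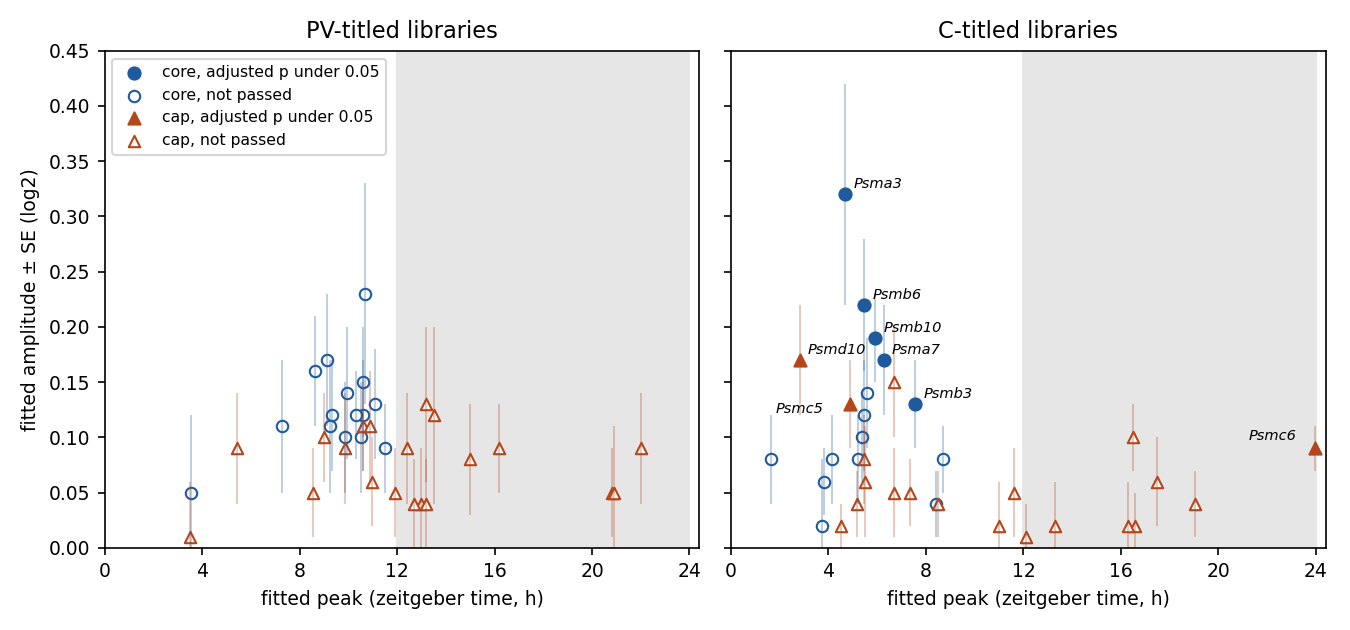
Fitted amplitude (± SE) against fitted peak time for the 15 core genes (circles) and 20 cap genes (triangles) in each kind of library; filled symbols passed at an adjusted p under 0.05 and grey marks ZT12 to ZT24. All core peaks lie before ZT12 in both panels, where 49.1% (PV-titled) and 54.6% (C-titled) of all genes do. Filled symbols appear only in the C-titled panel.

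As a group, the core level of the C-titled libraries was 7.28 ± 0.30 (SD, n = 10) at ZT2, 7.30 ± 0.25 (SD, n = 10) at ZT6, 7.24 ± 0.24 (SD, n = 9) at ZT10, 7.13 ± 0.14 (SD, n = 10) at ZT14, 7.15 ± 0.13 (SD, n = 9) at ZT18 and 7.11 ± 0.12 (SD, n = 10) at ZT22. Without the libraries that stood apart, ZT2 and ZT6 were both 7.16, and the difference between light and dark phase shrank from 7.28 against 7.13 to 7.19 against 7.13. The mean cap level stayed between 7.29 and 7.34 at all 6 times. In the libraries that stood apart the cap level was 7.45 ± 0.28 (SD, n = 5), from 7.11 to 7.69. High and low cap levels thus partly offset each other in the means at ZT2 and ZT6. The gap between C-titled and PV-titled core levels was 1.11 at ZT2, 0.92 at ZT6, 0.80 at ZT10, 0.82 at ZT14, 0.91 at ZT18 and 0.93 at ZT22, and that of the cap 0.85, 0.79, 0.68, 0.73, 0.72 and 0.77. Without the libraries that stood apart the core gap was 0.98, 0.79, 0.83, 0.84, 0.91 and 0.94 and the cap gap 0.83, 0.74, 0.72, 0.76, 0.72 and 0.80, so the order of the times in the core depends on those libraries: ZT6 had the narrowest core gap without them. The lowest C-titled library lay above the highest PV-titled library at each time for both.

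**Figure D5:**
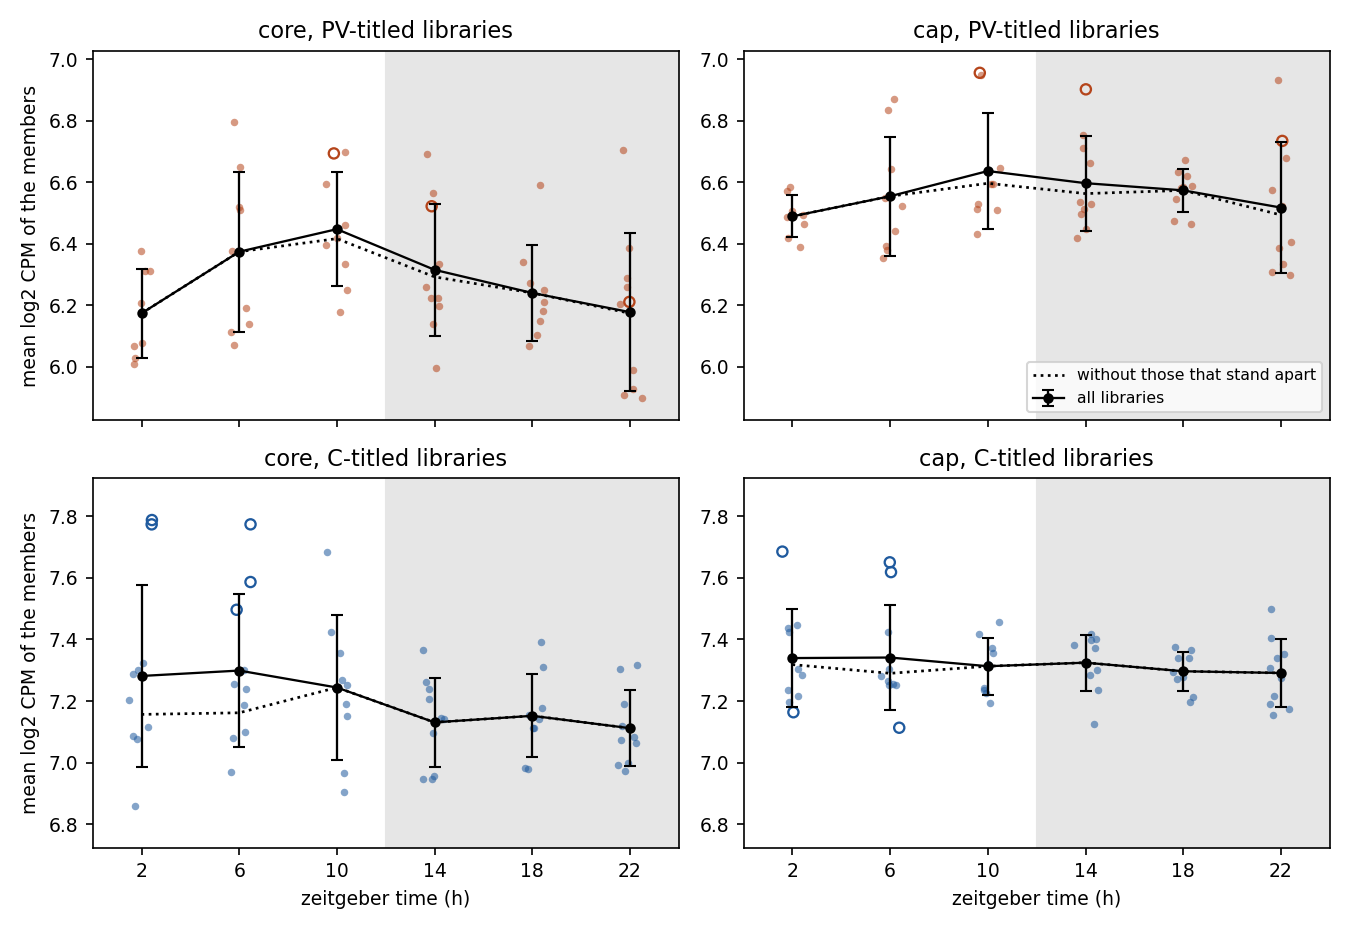
Core (left) and cap (right) level, as mean log2 CPM of the members, over zeitgeber time in PV-titled (top) and C-titled (bottom) libraries; points are libraries, open circles those that stood apart, black the mean ± SD and the dotted line the mean without them. In the C-titled core the solid line leaves the dotted one at ZT2 and ZT6, where it stands at 7.28 and 7.30 against 7.16.

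Whether the rhythms differ between the kinds of library was tested with an interaction term. No member passed (edgeR's quasi-likelihood test, smallest adjusted p = 0.197, for Psma3), where 1.12% of all genes did; 4 of 35 members and 1909 of 13026 genes had an unadjusted p under 0.05, and DESeq2 called none. A rhythm called in the C-titled libraries alone is therefore not shown to be particular to them. For sex, no member passed in either kind of library (smallest adjusted p = 1 and 0.423), where 0.0307% and 0.184% of all genes did. The fitted difference was toward males in 25 of 35 members in the PV-titled libraries and 31 in the C-titled libraries. Among all genes it was toward males in 6828 and 5713 of 13026. At an unadjusted p under 0.05 there were 0 members in the PV-titled libraries and 6 in the C-titled libraries, against 361 and 992 of 13026 genes, and DESeq2 called none. The gap in core level between C-titled and PV-titled libraries was 0.89 in females and 0.94 in males.

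Members of the core varied together across libraries of 1 kind more than members of the cap. After time, sex and library number range were removed, the median Pearson correlation between pairs of core genes was 0.51 over the 55 PV-titled libraries and 0.74 over the 58 C-titled libraries. Between cap genes it was 0.20 and 0.32, between a core and a cap gene 0.31 and 0.38, and over all pairs of genes 0.00 in both. Without the libraries that stood apart the core's values were 0.58 and 0.74 and the cap's 0.22 and 0.34. These are descriptions across libraries that share depth, scaling and preparation, and no test was made of them.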

How the data were processed

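Ribosome-bound RNA was made into cDNA with a SMART-seq HT kit and into libraries with Nextera Flex, per the labels' protocols. The deposited table holds raw counts of reads per gene; the submitters' processing notes name FastQC, HTSeq and DESeq2 and the build GRCm38, and the strand setting is not given in the sources used here. Columns were matched to samples by title; 1 column was not used. The table's row without a gene was left out of library sizes. Genes passing filterByExpr were scaled with TMM and tested with edgeR 4.0.16 in R 4.3.3. The prefix test adjusted for time, sex and library number range (the 2 separate runs of library numbers in the titles); rhythm tests fitted cosine and sine of 24 h within each prefix, with sex and range. P-values were adjusted over all genes tested. CPM values use TMM-scaled totals; log2 CPM used a prior count of 2. Libraries stood apart when their median correlation lay more than 5 median absolute deviations below the median of their prefix. Near-identical genes were found with blastn 2.17.0 in GENCODE transcripts. Alternatives were DESeq2 1.42.0, no TMM, no filter, the title's set number as replicate block, time as a factor, leaving out each set, each number range, each sex, and a test against 2-fold; leaving out the libraries that stood apart was added after seeing the data. The models were tested on simulated data. The simulated rhythms were larger than the median amplitude of the members, so rhythms of the members' size were not covered.

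The members and the gene lists were chosen with earlier results of these data known. Values over libraries are given for the catalytic subunits and the immunoproteasome subunit Psmb10. They are also given, in core and in cap, for the 3 lowest and 2 highest differences. Rhythm values are given for the 3 smallest p-values in each part and prefix. With 19.1 to 44.1 M gene counts per library, counting error of the members is small beside the spread between libraries.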

Additional observations from a re-analysis of the deposited data

Results flagged for a closer look

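Each group of 4 or 5 libraries of 1 prefix, time and sex was examined for a library far from the rest, once in its core level and once in its cap level, which made 48 tests, of which chance marks about 1 in 20; 2 were marked. The core level of the C-titled female library of set 2 at ZT22 was 7.32 (mean log2 CPM), above the other libraries of its group. The cap level of the C-titled female library of set 3 at ZT6 was 7.65, and this library is one of the 8 that stood apart.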

How the results depend on the processing

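The counts of lower members (14 in the core, 20 in the cap) held under DESeq2, no filter, the replicate block, each left-out set, each sex and without the libraries that stood apart; the core's median ranged from -1.15 to -1.04 and the cap's from -0.81 to -0.70 over the left-out sets. Against 2-fold, 7 core and 2 cap genes stayed lower and 0 core genes were higher. Without TMM the cap's median was -0.54, and 38.3% of all calls were lower in the PV-titled libraries, against 49.3% with TMM. Psmc1 reversed to 0.04 in the first number range. Another 8 alternative values of members named for their difference lost the call with direction kept. Of the values of the 6 members named for rhythm in the C-titled libraries, 46 lost the call and 44 kept it; the 6 named in the PV-titled libraries had no call and gained none. In the C-titled libraries the 5 rhythmic core genes became 3 without TMM, 3 with the set number as replicate block, 1 with time as a factor, 0 and 2 in the first and second number range, 0 in females, 0 in males and 1 without the libraries that stood apart, and 0 to 4 over the left-out sets (0 without set 3). The 3 rhythmic cap genes became 0 without TMM, 1 with time as a factor, 0 in each number range, 0 in each sex, 1 without the libraries that stood apart, and 0 to 4 over the left-out sets. The cause was not tested; the splits hold fewer libraries. All-gene rhythm calls fell with them, from 3518 to 378 and 1334 in the number ranges of the C-titled libraries and to 1307 with time as a factor. The set numbers gave no clear pairing of libraries of the 2 prefixes, though same-numbered pairs correlated slightly more than others. Their deviations had a median correlation of 0.0783, against -0.0222 for differently numbered pairs of the same time and sex. In 24 of 53 same-numbered pairs it was over 0.1, and 15 of 52 C-titled libraries correlated best with their own number. The block changed no other count of member calls by over 1.5 times.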
